A study of Mus musculus with 3 samples.

Results

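The genes that encode glutamate receptor subunits and the vesicular transporters of glutamate were followed in single enteric neurons of *Ednrb*-/- mice. They were taken by symbol, as every gene named Gria, Grik, Grid, Grin or Grm with its number, together with *Slc17a6*, *Slc17a7* and *Slc17a8*. This gave 29 of the 33353 genes listed, of which 27 had at least 1 UMI (unique molecular identifier, 1 per captured RNA molecule) and 16 had at least 50. The 3 mice, all *Ednrb*-/-, a model of Hirschsprung disease, were C57BL/6 by their label and were killed on postnatal day 14. The authors list the *Ednrb* and reporter lines under strain names that are not C57BL/6 alone. Wnt1-Cre switched on the tdTomato reporter that all of them also carried, in cells that come from the neural crest, and reporter-positive cells were sorted from the longitudinal muscle with myenteric plexus of the small intestine. A 10x Chromium library was made from each mouse, and the 2060 cells kept as neurons by the authors were analysed. There was 1 genotype, wild-type cells were not analysed here, and UMIs summed over a gene cannot check the deleted allele, so every comparison below is between groups of neurons within the same mice.

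Glutamate is packed into synaptic vesicles by the vesicular transporters VGLUT1, VGLUT2 and VGLUT3, the products of *Slc17a7*, *Slc17a6* and *Slc17a8*. Once released it opens ion channels of the AMPA, kainate and NMDA classes, each an assembly of several subunits, and acts on metabotropic receptors that signal through G proteins. Delta receptors belong to the same gene family but bind glycine or D-serine and synaptic organizers of the cerebellin family rather than glutamate. In the gut, most fast transmission between myenteric neurons uses acetylcholine, and glutamate has been studied as an additional transmitter, with VGLUT2 known from subsets of enteric neurons.

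The promoters of the receptor gene detected in most cells and of the main vesicular transporter detected here are shown for context, as the 250 bases before and 50 after the RefSeq start on GRCm38.p6, with every CG in capitals. The *Gria2* promoter lies at chr3:80802786-80803085 on the minus strand, and that of *Slc17a6* at chr7:51621580-51621879 on the plus strand.
Gria2: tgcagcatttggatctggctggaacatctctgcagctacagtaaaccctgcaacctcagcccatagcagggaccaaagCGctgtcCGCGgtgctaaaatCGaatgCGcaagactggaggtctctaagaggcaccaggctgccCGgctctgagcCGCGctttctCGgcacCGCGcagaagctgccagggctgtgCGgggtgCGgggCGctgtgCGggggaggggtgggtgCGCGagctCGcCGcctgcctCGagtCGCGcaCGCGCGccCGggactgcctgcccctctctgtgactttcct
Slc17a6: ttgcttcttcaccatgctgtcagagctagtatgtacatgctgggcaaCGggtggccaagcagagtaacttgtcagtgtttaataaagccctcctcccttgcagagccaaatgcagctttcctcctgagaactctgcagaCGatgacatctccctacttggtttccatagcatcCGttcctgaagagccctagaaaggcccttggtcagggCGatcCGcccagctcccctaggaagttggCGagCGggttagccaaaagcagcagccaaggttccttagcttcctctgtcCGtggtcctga
The *Gria2* window holds 26 CG, and 16.9% of the 32851 promoters in the table hold at least as many. The *Slc17a6* window shown holds 8, against a median of 7. Another RefSeq start of *Slc17a6*, with its window at chr7:51624387-51624686, holds 3. Reference promoters were found for 18 of the 29 genes. No chromatin or methylation was measured, so the RNA values below do not bear on these letters.

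Depth differed between the mice. The library of mouse 1 held 354 cells at a median depth of 3734.5 UMIs, that of mouse 2 held 1050 at 9599.5 and that of mouse 3 held 656 at 9578.5. Mouse 1 also stood apart in clustering, where 230 of its cells formed a cluster (cluster 3) with no cell of the other mice. The summed level of 10 neuronal markers was 65.4 to 73.8 UMIs per 10000 in the 3 mice, with all 10 detected. A smooth muscle-like cluster (cluster 10) held 64 cells, 58 of them from mouse 1, with neuronal markers at 13.5 to 45.4 and smooth muscle markers at 126 to 449.9 per 10000. Its cells had a median of 3538.5 UMIs, and the share of them with each gene is given below as a level in cells of another type. Barcodes shared between libraries numbered 2. Results are therefore also given without mouse 1.

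A level is the UMIs of a gene per 10000 UMIs of all cells of a group in 1 mouse. A share is the percentage of cells with at least 1 UMI of the gene, as the mean of the 3 mice with its SD (n = 3 mice). Pooled shares carry exact Clopper-Pearson intervals at 95%, which cover counting error only. Shares at equal depth were taken after 3000 UMIs had been drawn at random from every cell, for which 78 cells of mouse 1, 55 of mouse 2 and 45 of mouse 3 were too shallow.

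AMPA receptor subunits carried 6261 of the 12836 UMIs of all 29 genes. *Gria2* (chromosome 3, 80681450 to 80802835, GRCm38), whose edited subunit GluA2 makes AMPA receptors poorly permeable to calcium, was detected in 53.0% ± 12.4 of neurons. Its level was 2.02, 1.81 and 2.40 UMIs per 10000 in mice 1, 2 and 3. The mice lay close together in level, although the share in mouse 1, 39.3%, was below the 56.3% and 63.4% of the deeper libraries. At 3000 UMIs per cell the shares came to 34.4%, 33.5% and 37.6%. In the smooth muscle-like cluster *Gria2* was in 10 of 64 cells, 15.6% (7.76 to 26.9). The 4 AMPA genes together were at 0.905 there in mouse 1, but at 6.08 and 7.85 in the 4 cells of mouse 2 and the 2 of mouse 3, above all neurons of those mice (3.12 and 3.91), so the shares in this cluster describe mouse 1.

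*Gria4*, which encodes GluA4, a subunit with fast kinetics, was in 40.7% ± 19.4 of neurons at 0.596, 0.861 and 1.003 UMIs per 10000. *Gria3* (GluA3) was in 18.3% ± 1.67, at 0.583 in mouse 1 and 0.228 and 0.245 in mice 2 and 3. *Gria1* (GluA1) was in 14.1% ± 6.02, at 0.210, 0.224 and 0.267. All 4 AMPA genes were thus found in each mouse, and *Gria3* was the only one of them whose level in mouse 1 was above that of both other mice. In the smooth muscle-like cluster these 3 genes were in 9.38% to 10.9% of cells.

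All 5 kainate receptor genes were detected, with 3999 UMIs in all. *Grik1* (GluK1; chromosome 16, 87895900 to 88290265), which can form a channel by itself, was in 31.3% ± 17.8 of neurons, at 0.341, 0.851 and 1.09 UMIs per 10000. *Grik2* (GluK2), the most widely used kainate subunit of the brain, was in 29.4% ± 14.7, at 0.321, 0.599 and 0.600. *Grik3* (GluK3) was in 5.37% ± 3.76, at 0.0262, 0.0994 and 0.0842. For these 3 subunits mouse 1 had the lowest level. The other two kainate genes encode high-affinity subunits that need GluK1, GluK2 or GluK3 to reach the membrane. *Grik5* (GluK5) was in 28.2% ± 11.1 of neurons at 0.406, 0.441 and 0.473, and *Grik4* (GluK4) in 12.96% ± 1.44 at 0.288, 0.165 and 0.182. In the smooth muscle-like cluster the kainate genes ran from 0 of 64 cells for *Grik3* to 10.9% for *Grik2*.

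The delta receptor gene *Grid1* (GluD1) was sparse, with 68 UMIs in all and 2.76% ± 1.63 of neurons. None of the smooth muscle-like cells had it.

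The NMDA receptor is built from the obligatory subunit GluN1 (*Grin1*), which binds glycine, and from GluN2 subunits, which bind glutamate. *Grin1* (chromosome 2, 25291181 to 25319187) was in 22.7% ± 8.65 of neurons at 0.328, 0.364 and 0.393 UMIs per 10000. The smooth muscle-like cluster had none in 64 cells (up to 5.60%). The GluN2 genes were sparse. *Grin2b* had 111 UMIs and was in 4.32% ± 2.92 of neurons, *Grin2d* had 34 UMIs, *Grin2c* had 2 UMIs, and *Grin2a* had none in 2060 cells (up to 0.179%). *Grin3a* (GluN3A; chromosome 4, 49661611 to 49845744), a glycine-binding subunit of early postnatal life in the brain, was in 5.76% ± 2.86, at 0.367, 0.0483 and 0.123. *Grin3b* had 2 UMIs. Detection of a GluN2 gene was rare also among neurons with *Grin1*, at 34 of 515 or 6.60% (4.62 to 9.10), against 6.21% (5.06 to 7.54) of the neurons without it.

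Metabotropic receptors were mostly at the limit of detection. *Grm7* (mGlu7; chromosome 6, 110645581 to 111567230), a presynaptic autoreceptor of group III, was the exception, with 313 UMIs, 9.70% ± 3.08 of neurons and nearly the same level in each mouse, 0.170, 0.172 and 0.170. *Grm8* had 22 UMIs and *Grm4* 15, and *Grm6*, known from retinal bipolar cells, had none. *Grm5*, an excitatory receptor of group I, had 16 UMIs, and the group II receptors were found as 5 UMIs of *Grm2* and 4 of *Grm3*. In mouse 1 none of these 3 genes had a UMI.

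Among the transporters, *Slc17a6* (chromosome 7, 51622006 to 51671119) was in 2.17% ± 0.828 of neurons, with 99 UMIs in 39 cells. *Slc17a8* (chromosome 10, 89574020 to 89621253) had 19 UMIs in 13 cells and *Slc17a7* 2 UMIs in 2 cells. Any of the 3 transporters was found in 53 cells, and 0 cells had both *Slc17a6* and *Slc17a8*, which are too rare here for that count to show that they keep to separate cells. *Gria2* alone was in 1146. A neuron held UMIs of 3.102 ± 1.06 of the 29 genes, and of 1.66 ± 0.197 at 3000 UMIs per cell.

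**Figure D1:**
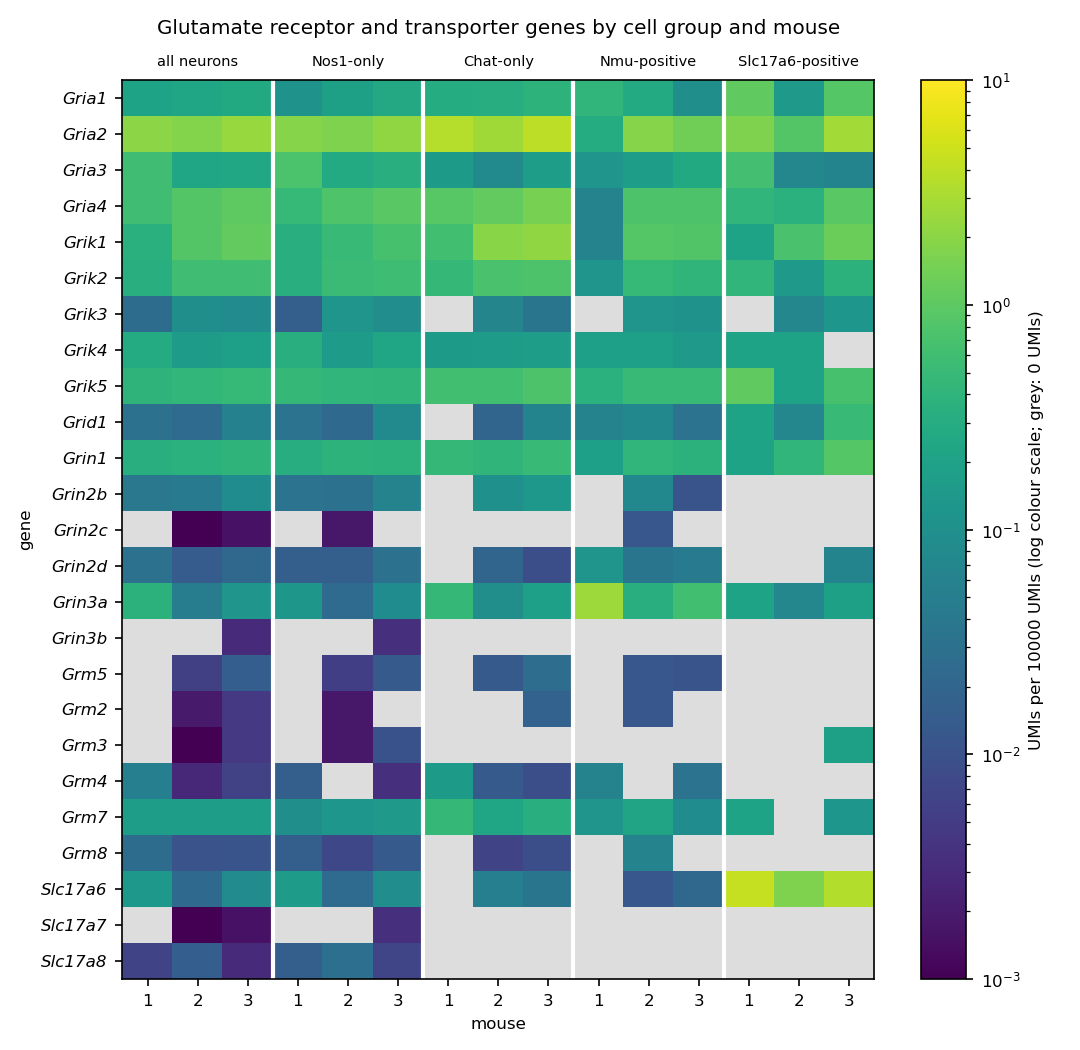
Level of 25 of the detected genes, in UMIs per 10000 on a log colour scale, in each mouse for all neurons and for the *Nos1*-only, *Chat*-only, *Nmu*-positive and *Slc17a6*-positive groups. *Gria2* has the brightest row in all neurons, at 1.81 to 2.40, and *Grm5*, *Grm2*, *Grm3* and *Slc17a7* are dark or, at 0 UMIs, grey.

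Subunits that assemble together were looked for in the same cells. *Gria2* was in 64.4% (61.6 to 67.0) of the 1226 neurons with *Gria1*, *Gria3* or *Gria4*, and in 42.8% (39.4 to 46.2) of the 834 without them. At equal depth the shares were 45.0% (41.0 to 49.0) and 30.1% (27.6 to 32.7). At least 1 of *Grik1*, *Grik2* and *Grik3* was in 66.2% of the neurons with *Grik4* or *Grik5* and 53.3% of those without, and in 39.8% (34.6 to 45.2) and 30.7% (28.4 to 33.1) at equal depth. In both cases the intervals over all neurons were apart at either depth, and the share was higher with the partner in each mouse. Within smaller groups this did not always hold. In *Nos1*-only neurons at equal depth *Gria2* was in 41.7% (35.4 to 48.2) with a partner and 35.9% (31.6 to 40.3) without, intervals that overlap, and in those of mouse 1 in 25.8% and 47.8%. In *Nmu*-positive neurons at equal depth the kainate shares were 14.3% of 21 cells and 19.0% of 79. Cells of 1 mouse are not replicates, so these shares were not tested.

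Inhibitory and excitatory motor neurons of the myenteric plexus are broadly told apart by *Nos1*, which makes nitric oxide, and *Chat*, which makes acetylcholine. Neurons with *Nos1* and no *Chat* numbered 130, 531 and 301 in mice 1, 2 and 3, and those with *Chat* and no *Nos1* 16, 148 and 113. Both genes were in 103 neurons and neither in 718, and these were left out of the comparison. UMIs were summed over the cells of a group in each mouse and compared on log2(UMIs per 10000 + 0.1) with limma, with the mouse as a block and Benjamini-Hochberg adjustment over 11377 genes. Fold changes on this scale understate those of low genes. Of the 29 genes, 15 had the 50 UMIs needed.

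The result depended on how the sums were weighted. With equal weights, 0 of the 15 genes passed an adjusted p of 0.05 in limma, against 0.0879% of all genes, although 9 of the 15 had an unadjusted p under 0.05 (11 with voom weights). Of all 11377 genes, 1393 had an unadjusted p under 0.05 in limma with equal weights and 2772 with voom weights. With voom weights, which let deeper sums count for more, 9 of the 15 passed, against 10.6% of all genes. Of these, 2 were higher in *Nos1*-only neurons and 7 lower. The sum of mouse 1 for *Chat*-only neurons rests on 16 cells and 66148 UMIs, so that 3 UMIs there equal 0.454 per 10000. Without mouse 1, equal weights called 11 of the 15, against 19.5% of all genes. The 9 were among these 11, in the same directions, and the other two were *Gria1* and *Grik2*, both lower. Voom weights called 3 of the 15 without mouse 2 (*Grik1*, *Grm7* and *Gria2*) and 4 without mouse 3, among them *Grik1*, *Gria3* and *Gria2*, and equal weights called 1 in both cases. Of all genes, voom weights called 4.59% without mouse 2 and 4.76% without mouse 3, and equal weights 0.983% and 1.28%. Over the 15 genes the median log2 difference was -0.61 with voom weights, where that of all genes was -0.12, and -0.37 with equal weights, where it was 0.02. Counting direction alone, 13 of the 15 lay the same way in 3 of 3 mice, 4 higher and 9 lower, against 39.4% of all genes.

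*Grik1* was at 0.330, 0.502 and 0.688 UMIs per 10000 in the *Nos1*-only neurons of mice 1, 2 and 3, and at 0.605, 1.91 and 2.17 in *Chat*-only neurons. It was lower in *Nos1*-only neurons within each mouse, and the groups overlap only through mouse 1. With voom weights the log2 difference was -1.76 (SE 0.16, adjusted p = 6.91e-06 in limma), 3.38-fold. With equal weights it was -1.33 (SE 0.23, adjusted p = 0.128 in limma). At 3000 UMIs per cell, *Grik1* was in 14.01% (11.6 to 16.7) of *Nos1*-only and 47.0% (39.2 to 54.9) of *Chat*-only neurons, and there its log2 difference of -1.99 passed with equal weights too (adjusted p = 0.0417 in limma). Among the kainate genes it made up 28.7% ± 6.12 of UMIs in *Nos1*-only and 48.0% ± 12.7 in *Chat*-only neurons.

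*Gria2* was at 1.86, 1.69 and 2.17 in *Nos1*-only neurons and at 3.63, 2.70 and 3.97 in *Chat*-only neurons. The groups do not overlap. The log2 difference was -0.79 with voom weights (SE 0.13, adjusted p = 0.000955 in limma) and -0.80 with equal weights (SE 0.12, adjusted p = 0.104 in limma). Its share at equal depth was 37.8% (34.2 to 41.4) against 62.0% (54.2 to 69.5). *Gria4* lay the same way, at 0.478, 0.784 and 0.945 against 0.907, 1.09 and 1.54, with a log2 difference of -0.62 (SE 0.16, adjusted p = 0.0209 in limma with voom weights).

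*Gria3* (chromosome X, 41400854 to 41678601) went the other way from *Gria2* and *Gria4*. It was at 0.742, 0.275 and 0.325 in *Nos1*-only and at 0.151, 0.0805 and 0.171 in *Chat*-only neurons, without overlap. With voom weights it was 2.55-fold higher in *Nos1*-only neurons (log2 1.35, SE 0.31, adjusted p = 0.0103 in limma). Of the AMPA receptor UMIs it made up 13.8% ± 8.16 in *Nos1*-only and 2.59% ± 0.586 in *Chat*-only neurons, while *Gria2* made up 58.2% ± 0.493 and 67.6% ± 4.44.

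A further 4 of the genes called with voom weights were lower in *Nos1*-only neurons. *Grm7* was at 0.0989, 0.125 and 0.147 against 0.454, 0.235 and 0.333, a log2 difference of -1.15 (SE 0.26, adjusted p = 0.00988 in limma with voom weights). *Grin3a* was at 0.132, 0.0253 and 0.0890 against 0.454, 0.0939 and 0.180, and *Grin2b* at 0.0330, 0.0308 and 0.0616 against 0, 0.101 and 0.135. The groups overlap in both NMDA genes, whose log2 differences were -1.49 and -1.37 (adjusted p = 0.0129 and 0.0299 in limma with voom weights). *Grik5* was at 0.462, 0.422 and 0.414 against 0.605, 0.617 and 0.756, without overlap, and its log2 difference was -0.69 (SE 0.18, adjusted p = 0.0248 in limma with voom weights). In mouse 1 the *Chat*-only levels of *Grm7* and *Grin3a* are both 3 UMIs.

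No call was made in either weighting of the 3 mice for *Gria1*, *Grik2*, *Grik3*, *Grik4*, *Grin1* and *Slc17a6*. *Grin1*, which any NMDA receptor needs, was at 0.313, 0.382 and 0.366 in *Nos1*-only and 0.454, 0.409 and 0.513 in *Chat*-only neurons. Its log2 difference was -0.31 (SE 0.20, adjusted p = 0.369 in limma with voom weights), which does not show the groups to be alike.

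**Figure D2:**
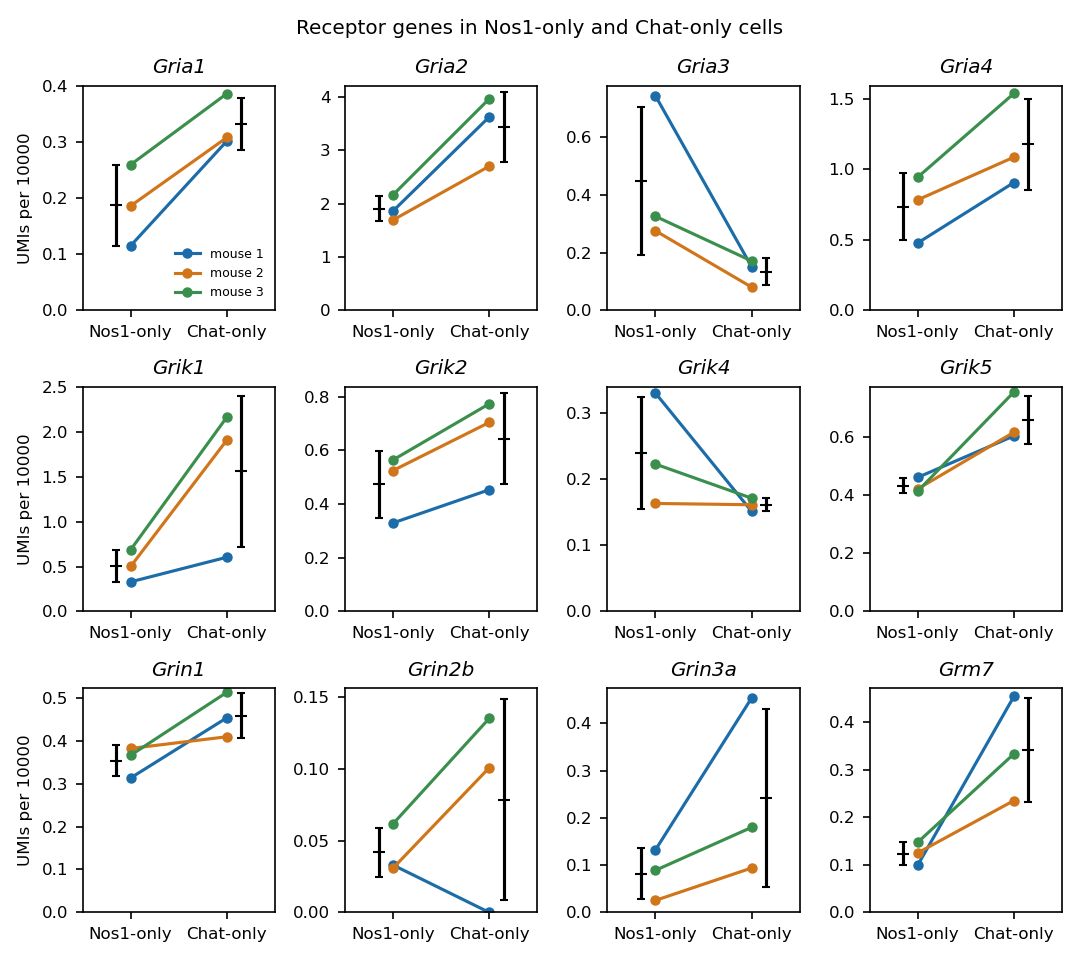
Level in UMIs per 10000 of 12 receptor genes in *Nos1*-only and *Chat*-only neurons, with a line for each mouse and bars for the mean and SD. Lines for *Gria3* fall from the *Nos1*-only to the *Chat*-only side in all 3 mice, and those for *Grik1* and *Gria2* rise.

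Each of these groups was a mixture. Clusters were made from the expression of all genes, these included, so their levels are a description. Cluster 4, with no cell of mouse 1, held 82 of the 277 *Chat*-only neurons (29.6%), and there *Gria2* was at 10.3 and *Grik1* at 5.37 UMIs per 10000, against 1.70 and 1.24 in the other *Chat*-only neurons. In mice 2 and 3, *Gria2* in the *Chat*-only cells of cluster 4 was at 9.21 and 11.2. Cluster 7 held 122 of the 962 *Nos1*-only neurons (12.7%), with *Gria2* at 5.30, *Grik2* at 1.41 and *Gria3* at 0.857, against 1.56, 0.450 and 0.277 in the others. High *Gria2* was thus found in a minority of cells on each side. Setting aside clusters that are high in a gene lowers its level by construction. With cluster 4 left out of the *Chat*-only and cluster 7 out of the *Nos1*-only neurons, *Gria2* was at 3.63, 1.57 and 1.73 against 1.86, 1.44 and 1.74 in mice 1, 2 and 3, and *Grik1* at 0.605, 1.35 and 1.11 against 0.330, 0.469 and 0.640.

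Genes that work with these receptors were counted in lists chosen with earlier results of these data known. Voom weights called 10.6% of all genes in this comparison. Of 17 tested scaffold genes, 7 were lower and 0 higher in *Nos1*-only neurons with voom weights, among them *Dlgap2*, *Shank1*, *Grip1*, *Homer2*, *Dlg4* and *Dlg2*. *Dlgap2*, a partner of PSD-95, was at 0.165, 0.0779 and 0.123 in *Nos1*-only and 0.302, 0.543 and 0.639 in *Chat*-only neurons (log2 -2.47, SE 0.25, adjusted p = 1.94e-05 in limma with voom weights). The median of the 17 was -0.48, where that of all genes was -0.12. Of 12 auxiliary genes, *Gsg1l*, an AMPA receptor auxiliary subunit, and *Sorcs2* were higher, at log2 differences of 2.06 and 1.15 (adjusted p = 0.0023 and 0.0243 in limma with voom weights), and *Cbln2*, a cerebellin that binds delta receptors, was lower at -1.73 (adjusted p = 0.00888). Of 10 genes for uptake and metabolism 1 was called, near the share of all genes. This was *Slc1a2*, a glutamate uptake transporter, higher at 1.39 (adjusted p = 0.00503 in limma with voom weights). With equal weights 0 genes of these 3 lists passed in limma, and 6 of the scaffold, 3 of the auxiliary and 1 of the uptake genes had an unadjusted p under 0.05.

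Markers of other cells moved with the same groups. The summed level of 10 smooth muscle markers was 39.0, 24.4 and 15.9 in *Nos1*-only and 24.9, 9.86 and 10.5 in *Chat*-only neurons, and 8 of the 10 were higher in *Nos1*-only neurons with voom weights. That of 10 glial markers was 13.1, 14.2 and 11.6 against 11.5, 8.65 and 5.67, with 4 of the 10 higher. Markers of interstitial cells of Cajal, the pacemaker cells of the gut wall, summed to 9.27, 6.58 and 5.94 against 1.66, 0.912 and 0.927. Of the 3 of these tested, *Etv1*, by which the authors also mark a group of enteric neurons, was higher (log2 2.77, adjusted p = 0.0157 in limma with equal weights). *Kit* and *Cd44*, at log2 differences of -0.27 and 0.34 in the same fit, were not called (names given after their values were seen). Of 4 fibroblast-like markers 1 was called with voom weights, and of 2 immune markers 0 in limma, with 0 under an unadjusted p of 0.05. All markers of the smooth muscle, glial, Cajal and fibroblast-like lists were detected in both groups, and their part in the result was not tested. Clusters 1, 2 and 10 were lowest in summed neuronal markers, at 42.7, 20.8 and 17.8. Without them, voom weights called 8 of 14 genes, against 12.0% of all genes. All 8 lay in the directions above, and *Grin2b* had too few UMIs to be tested. Clusters 0 and 3 were kept, with glial markers at 18.4 and 21.0 and smooth muscle markers at 36.6 and 21.0. Cells with at least 3 of the 10 glial or 5 of the 10 smooth muscle markers numbered 1666 of 2060. Leaving them out kept 54, 66 and 50 *Nos1*-only and 10, 36 and 37 *Chat*-only cells, which may still hold fewer markers. There 8 genes had enough UMIs. With voom weights 2 were called in the same directions, against 3.0% of all genes. *Grik1* was among them, while *Gria2* was not (log2 -0.49, adjusted p = 0.373 in limma). Of 23 neuron class markers tested, 13 had an unadjusted p under 0.05 in limma with equal weights, and 4 were called. The inhibitory peptide genes *Vip* and *Npy* were higher in *Nos1*-only neurons, at log2 differences of 3.58 and 3.43. *Calb2* and *Penk* were lower, at -1.85 and -1.65 (adjusted p = 0.0374 to 0.041 for the 4 in limma with equal weights). They are named because they passed, so they are no control of the grouping.

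*Nmu* encodes neuromedin U, a peptide of putative sensory neurons of the myenteric plexus. It was found in 31, 80 and 89 neurons of mice 1, 2 and 3, which were compared with the other 1860 neurons. These 200 were a mixture, with 85 *Nos1*-only, 30 *Chat*-only, 12 with both genes and 73 with neither. A single *Nmu* UMI was all that 130 of them held, and 51 lay in cluster 0 and 41 in cluster 9. With equal weights 0 of the 16 genes tested passed in limma, against 0.00819% of all genes. An unadjusted p under 0.05 was found for 6 of the 16 and for 841 of all 12210 genes tested. With voom weights *Grin3a* was the only 1 of the 16 called, against 1.02% of all genes. *Grin3a* was at 2.55, 0.328 and 0.618 UMIs per 10000 in *Nmu*-positive neurons and at 0.103, 0.0241 and 0.0418 in the others. The groups do not overlap, and it was higher within each mouse. The log2 difference was 2.61 with equal weights (SE 0.36, adjusted p = 0.122 in limma) and 4.05 with voom weights (SE 0.29, adjusted p = 1.08e-06 in limma), 16.6-fold. Without mouse 1 it was 2.06 (SE 0.20, adjusted p = 7.38e-05 in limma with equal weights), when 0.79% of all genes passed, and without mouse 2 or mouse 3 it was 3.03 or 2.75 and was called as well. Over 20 fits, these and others with other settings or fewer mice, its log2 difference stayed between 1.35 and 4.19, and 13 of the 20 called it. A direction shared by 3 of 3 mice was found for 4 of the 16 genes, 1 higher and 3 lower, against 32.8% of all genes.

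The number of *Nmu* UMIs in a cell separated the neurons further, a view chosen after the data were seen. Among neurons with at least 2 *Nmu* UMIs, *Grin3a* was in 17 of 25, 10 of 15 and 17 of 30 cells of mice 1, 2 and 3, or 68.0%, 66.7% and 56.7%. With 1 *Nmu* UMI it was in 3 of 6, 3 of 65 and 2 of 59 cells. With none it was in 11 of 323, 19 of 970 and 17 of 567. In mice 2 and 3, then, neurons with a single *Nmu* UMI lay near those with none, and the intervals of the 3 mice overlapped once 2 UMIs were required. Median depth was 7328.5 UMIs per cell at 2 or more *Nmu* UMIs, 8605.5 at 1 and 8198 at none. No smooth muscle-like cell had *Grin3a*, 0 of 64 (up to 5.60%).

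**Figure D3:**
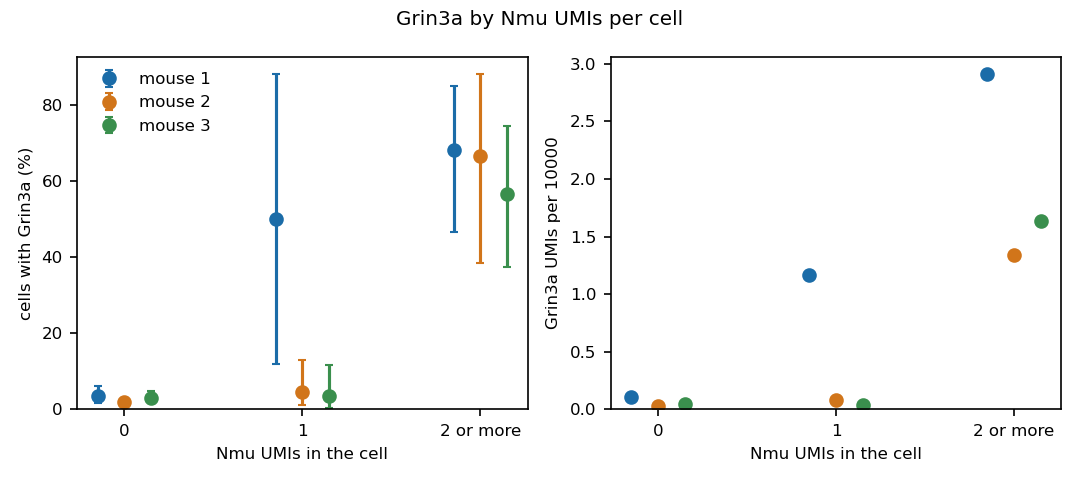
*Grin3a* by the number of *Nmu* UMIs in a neuron (0, 1, or 2 and more) in each mouse, as the share of cells with exact 95% intervals and as the level in UMIs per 10000. All 3 mice lie between 56.7% and 68.0% at 2 or more UMIs and at or below 3.41% at 0.

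With 2 UMIs required for a positive cell, the log2 difference of *Grin3a* was 3.68, and *Gria2* and *Grik1* were also called, lower by 1.22 and 1.30 on the log2 scale (adjusted p = 0.022 and 0.0191 in limma with equal weights), when 5.03% of all genes passed. At the 1 UMI definition *Gria2* was at 0.304, 1.87 and 1.35 in *Nmu*-positive neurons and 2.23, 1.80 and 2.57 in the others, which overlap. *Grin1*, the partner of GluN3A, was at 0.182, 0.425 and 0.376 against 0.345, 0.359 and 0.396 and was not called (log2 0.02 with voom weights, SE 0.25, adjusted p = 0.994 in limma). It was in 27 of the 99 neurons with *Grin3a*, 27.3% (18.8 to 37.1), and in 24.9% (23.0 to 26.9) of the rest.

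Of the 52 *Grin3a* cells with *Nmu*, 35 lay in cluster 9. These were 20 of 20 in mouse 1, 6 of 13 in mouse 2 and 9 of 19 in mouse 3, so without mouse 1 it held 15 of 32. Cluster 9 held 66 cells, 47 of mouse 1, 8 of mouse 2 and 11 of mouse 3, with *Grin3a* at 2.45 UMIs per 10000 and in 62.1% (49.3 to 73.8) of cells. Among neurons with at least 2 *Nmu* UMIs, *Grin3a* was in 32 of 37 inside the cluster and in 12 of 33 outside it. Of the auxiliary genes *Cbln2* was higher in *Nmu*-positive neurons, at 5.59, 1.02 and 1.61 against 0.257, 0.0797 and 0.123 (log2 3.90, SE 0.21, adjusted p = 5.76e-08 in limma with voom weights). Among 25 neuron class markers, *Nog*, *Cysltr2*, *Calcb* and *Slc18a3* were higher with voom weights, and none was called with equal weights, where 9 had an unadjusted p under 0.05 in limma. Of the scaffold and the uptake lists 0 genes were called in limma in either weighting, and 0 had an unadjusted p under 0.05. The summed glial markers were at 4.50, 11.9 and 10.8 in *Nmu*-positive and 16.9, 13.5 and 11.8 in other neurons, and the smooth muscle markers at 36.8, 25.4 and 20.9 against 93.8, 19.9 and 12.9, with all 10 of each list detected in both groups. None of the 20 was called in limma in either weighting, and 4 glial markers had an unadjusted p under 0.05 with equal weights and 3 with voom weights. Interstitial cell of Cajal markers summed to 2.13, 3.25 and 3.11 against 5.35, 4.34 and 3.73. Of the 3 tested, all named after their values were seen, *Kit* was higher with voom weights (log2 3.13, adjusted p = 3.75e-05 in limma). *Etv1* and *Cd44* lay the other way, at -0.86 and -0.57, and were not called (adjusted p = 0.288 and 0.922 in limma with voom weights). The part of these markers in the result was not tested. Without cells that hold at least 3 glial or 5 smooth muscle markers, 21, 11 and 14 *Nmu*-positive cells were left. There the log2 difference of *Grin3a* was 2.88 and was called.

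*Slc17a6* encodes VGLUT2, and neither this protein nor glutamate was measured here. RNA of *Slc17a6* was found in 10 of 354, 13 of 1050 and 16 of 656 neurons of mice 1, 2 and 3, a pooled share of 1.89% (1.35 to 2.58). None of the 64 smooth muscle-like cells had it (up to 5.60%). Most *Slc17a6*-positive neurons held few molecules, since 23 of the 39 had 1 UMI and 16 had 2 or more. The highest count in a cell was 5, 8 and 21 in mice 1, 2 and 3. Cluster 11, of 39 cells (18, 8 and 13), held 15 of the positive cells but 69 of the 99 UMIs. Outside it, *Slc17a6* was mostly a single UMI, and 18 of the positive cells were in cluster 0, the largest.

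The *Slc17a6*-positive neurons did not form a single class by *Nos1* and *Chat*. Of the 39, 21 were *Nos1*-only, 3 *Chat*-only, 4 had both genes and 11 neither, and 2 had *Nmu*. The share was 2.18% (1.36 to 3.32) of *Nos1*-only and 1.08% (0.224 to 3.13) of *Chat*-only neurons, and these intervals overlap. *Nos1*-only cells were 53.8% of the 39, where they were 46.7% of all neurons. Of the 16 with at least 2 *Slc17a6* UMIs, 7 were *Nos1*-only, 2 *Chat*-only, 1 had both genes and 6 neither.

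**Figure D4:**
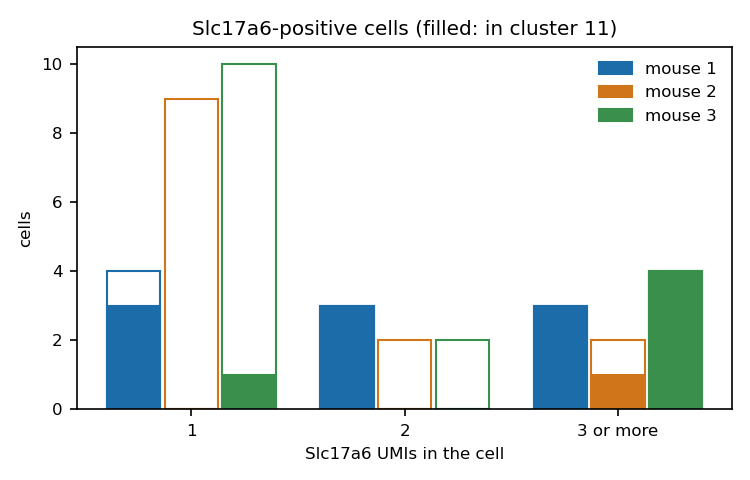
Number of *Slc17a6*-positive neurons in each mouse by the *Slc17a6* UMIs in the cell (1, 2, or 3 and more), with the filled part of a bar for cells of cluster 11. At 3 or more UMIs, the 3 cells of mouse 1, 1 of the 2 of mouse 2 and the 4 of mouse 3 are in cluster 11, and at 1 UMI 4 of the 23.

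Against the other 2021 neurons, 0 of the 15 genes tested passed in limma with equal weights, against 0.197% of all genes. An unadjusted p under 0.05 was found for 3 of the 15 and for 1918 of all 12210 genes tested. The median of all genes was -0.22 here, and that of the 15 was -0.35. With voom weights *Grid1* was the only 1 of the 15 called, against 1.73% of all genes. *Grid1* (chromosome 14, 34820108 to 35583379), whose product GluD1 organizes synapses through cerebellins, was at 0.213, 0.0708 and 0.505 in *Slc17a6*-positive neurons and at 0.0270, 0.0245 and 0.0464 in the others. The groups do not overlap, but the values rest on 1, 1 and 8 UMIs. The log2 difference was 3.103 with voom weights (SE 0.54, adjusted p = 0.00335 in limma) and 1.27 with equal weights (SE 0.47, adjusted p = 0.23 in limma). With voom weights and no mouse 1 it was 2.75 (adjusted p = 0.415 in limma), and without mouse 2 or 3 *Grid1* had too few UMIs to be tested. Without mouse 2, *Gria1* was called higher (log2 2.11, adjusted p = 0.00113 in limma with voom weights). *Gria1* was at 1.06, 0.142 and 0.883 against 0.183, 0.225 and 0.251, below the other neurons in mouse 2 and above them in mice 1 and 3. Of the 15 genes, 4 lay the same way in 3 of 3 mice, 1 higher and 3 lower, against 35.6% of all genes.

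Other genes were higher in these neurons. *Nxph2*, which encodes a neurexophilin, *Ntng1*, which encodes the adhesion molecule netrin-G1, and the enkephalin gene *Penk* were higher, at log2 differences of 3.07, 2.87 and 2.49 (adjusted p = 0.0254, 0.000848 and 0.0187 in limma with equal weights), and with voom weights *Calb1*, *Dbh*, *Cck* and *Cartpt* as well, of 26 class markers. *Ntng1* was at 7.65, 3.47 and 5.87 UMIs per 10000 against 0.534, 0.583 and 0.879. Without mouse 1, 0 of 11898 genes were called in limma in either weighting, so none of these calls held there. In cluster 11 the *Slc17a6*-positive cells had *Ntng1* in 15 of 15, *Penk* in 12, *Nxph2* in 10 and *Calb1* in 6. The 24 cells of cluster 11 without *Slc17a6* had them too, *Ntng1* in 20, *Penk* in 14, *Nxph2* in 11 and *Calb1* in 7. The 24 positive cells of other clusters had *Ntng1* in 15, *Penk* in 19 and the galanin gene *Gal* in 23, where *Gal* was in 7 of the 15 of cluster 11. *Gal* was common anyway, in 79.0% of the 1997 cells outside cluster 11 without *Slc17a6*. Of those cells 18.3% had *Ntng1*, 30.9% *Penk*, 2.10% *Nxph2* and 1.70% *Calb1*. No gene of the auxiliary, scaffold or uptake lists was called in limma in either weighting, and 1, 4 and 0 of them had an unadjusted p under 0.05 with equal weights and 4, 3 and 1 with voom weights. Summed glial markers were at 8.29, 19.0 and 14.005 in *Slc17a6*-positive and 15.8, 13.3 and 11.6 in other neurons, and smooth muscle markers at 26.6, 25.3 and 12.49 against 89.6, 20.3 and 14.05, with none of the 20 called in limma in either weighting. An unadjusted p under 0.05 was found for 1 glial and 3 smooth muscle markers with equal weights and for 1 of each with voom weights, and their part in the result was not tested.

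*Slc17a8*, the VGLUT3 gene, was rarer still. Its 13 positive neurons, 1, 10 and 2 in mice 1, 2 and 3, were all *Nos1*-only, a share of 1.35% (0.721 to 2.30) of that group. It was in 0 of 277 *Chat*-only neurons (up to 1.32%) and in 0 of the 718 with neither gene (up to 0.512%). Of the 13 cells, 12 had *Vip*, 13 *Gal* and 7 *Npy*, genes also found in 53.8%, 79.0% and 14.97% of the 1997 cells that lay outside cluster 11 and had no *Slc17a6*. Those 1997 cells were of every class, with *Nos1* in 51.9%, and *Vip* and *Npy* were higher in *Nos1*-only than in *Chat*-only neurons. The shares therefore do not set the 13 cells against other *Nos1*-only neurons. No cell had more than 4 UMIs of *Slc17a8*, and 10 of the 13 come from mouse 2, so these counts describe mainly that library.

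**Figure D5:**
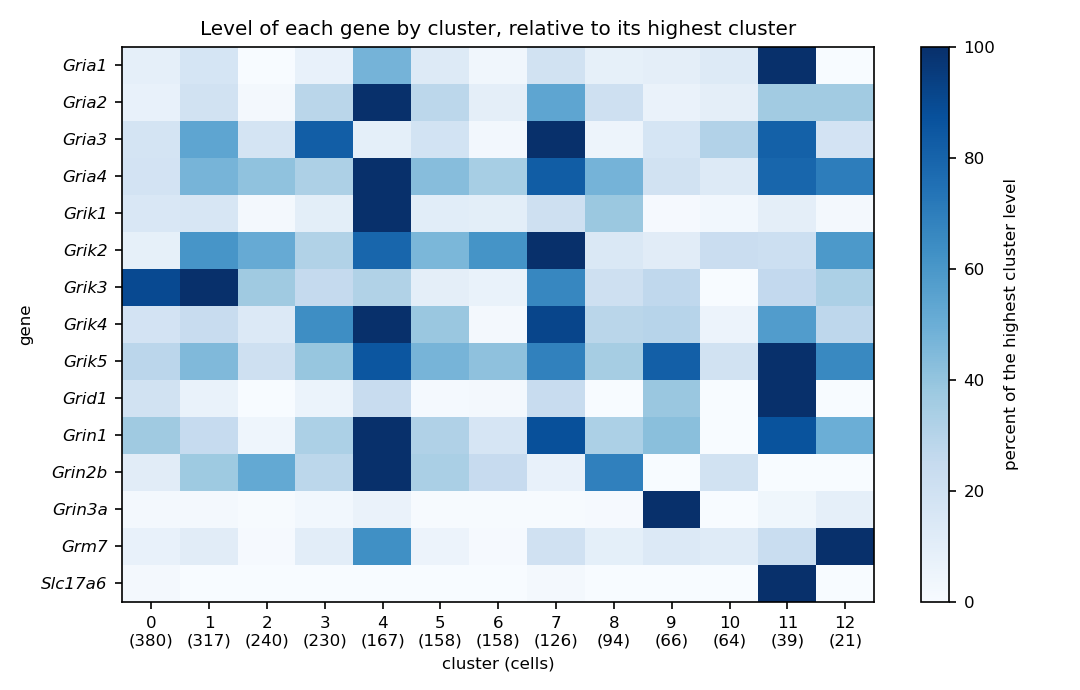
Level of 15 of the genes with at least 50 UMIs in the 13 clusters, each as a percentage of its highest cluster. *Slc17a6* and *Gria1* are highest in cluster 11, *Grin3a* in cluster 9, *Grm7* in cluster 12, and *Gria2*, *Gria4*, *Grik1*, *Grik4*, *Grin1* and *Grin2b* in cluster 4.

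Over the 13 clusters the genes fell into a few patterns, given as a description. In cluster 4, with 79 cells of mouse 2 and 88 of mouse 3, *Gria2* was at 9.81 UMIs per 10000 and in 89.2% (83.5 to 93.5) of cells, and *Grik1* was at 4.93 and in 79.6% (72.7 to 85.5). *Grin1* and *Gria4* were also highest there, at 1.09 and 2.17. Cluster 11 had the highest *Gria1*, 1.85, *Grik5*, 1.08, and *Grid1*, 0.344. *Grm7* was highest in cluster 12, of 21 cells, at 1.47, and next in cluster 4, at 0.927. *Gria2* was at 0.193 in cluster 2 and 0.717 in cluster 0, the largest, and at 0.639 in cluster 9, where *Grin3a* was highest. Clusters 0, 2, 4, 5, 6, 7, 8 and 12 held no cell of mouse 1, so the levels in those clusters are of mice 2 and 3.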

How the data were processed

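Single-cell RNA-seq of sorted reporter-positive small intestinal cells came from 3 mice, 1 library (10x Chromium v3.1) each. Per the submitters' processing notes, reads were processed with Cell Ranger on mm10. Its version, the annotation and whether intronic reads were counted are not given in the sources used here, nor is the sequencer of each library. The authors kept cells with 1500 to 5000 genes and little mitochondrial RNA, merged the mice, removed genes held to be confounding, selected neurons and deposited natural log values, ln(1 + UMIs per 10000 UMIs of the cell). Whole UMIs were recovered from them (100% of 6435281 values above 0 within 1e-06), with cell totals that include unlisted genes, 1.90% to 34.0% of a cell's UMIs (median 12.7%). No column lay outside the sample list (0).

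Groups were defined by at least 1 UMI of *Nos1*, *Chat*, *Nmu* or *Slc17a6*, after thinning where cells were thinned. UMIs were summed per group and mouse (at least 10 cells), genes with under 50 UMIs over the sums were dropped, and log2(UMIs per 10000 + 0.1) was compared in limma 3.58.1 (trend, mouse as block, 2-sided, Benjamini-Hochberg threshold 0.05) in R 4.3.3. The genes that define a group were left out of its tests. The pairing comes from the mice themselves, since both groups of a comparison are cells of the same mouse. Each comparison was also fitted with voom weights, which follow the depth of each sum, and with other pseudocounts, filters, definitions of a positive cell and sets of cells and mice. Clusters were made in Seurat 5.3.0 (2000 variable genes, 20 components, resolution 0.5). Doublets were not called or removed. The plan named cells with 5 or more smooth muscle markers as cells of another type, but 1228 of 2060 cells met this, and cluster 10 was used in its place. Named are the 29 genes and, of the other lists, those called, at most 10 per list and comparison, except for some genes that enter the counts but are not reported here. Genes counted beside *Slc17a6* and *Slc17a8* in single cells were chosen after their values were seen. The genes and lists were chosen with earlier results of these data known. Gene positions are of GENCODE M21 on GRCm38. The fits were tested on simulated data.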

Additional observations from a re-analysis of the deposited data

How the results depend on the processing

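With the weights, the mouse block and the filters of the report, 10 genes were called between *Nos1*-only and *Chat*-only neurons, 1 for *Nmu* and 24 for *Slc17a6*, and 0 of the 29 receptor and transporter genes in any of them (9, 6 and 3 had an unadjusted p under 0.05 in limma). Over all genes tested, 1393, 841 and 1918 had an unadjusted p under 0.05 in limma. In that order, a pseudocount of 0.02 gave 0, 3 and 4 genes, and no filter on low values 3, 0 and 0. A pseudocount of 0.5 gave 47 for *Nos1* and 0 for *Nmu*, and a minimum of 200 UMIs gave 2 for *Nmu*. Centring on the median gene gave 2 for *Nmu* and 316 for *Slc17a6*. Voom weights gave 1203, 125 and 211 genes, with 9, 1 and 1 of the 29. The median of all genes was 0.02 for *Nos1* and -0.22 for *Slc17a6* with equal weights, and -0.12 and 0.13 with voom weights. The groups of a comparison are paired by mouse, and with no replicate block 9, 0 and 0 genes were called, and 0 of the 29. Requiring 2 UMIs gave 2153 genes for *Nos1* (8 of the 29, from 2 mice) and 608 for *Nmu* (3 of the 29). Thinning to 3000 UMIs gave 1 of the 29 for *Nos1*, and for *Nmu* 78 genes and 1 of the 29. Leaving out cells with glial or smooth muscle markers (at least 3 or 5 of them) gave 31 genes for *Nos1*, and 142 with 2 of the 29 for *Nmu*. These last 3 alternatives were not run for *Slc17a6*, where no mouse kept 10 cells in both groups.

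Leaving out 1 mouse gave 91 to 2188 genes and 1 to 11 of the 29 for *Nos1*, 49 to 94 genes and 1 of the 29 each time for *Nmu*, and 0 to 94 genes for *Slc17a6*. The other alternatives were chosen after seeing the data. Without clusters 1, 2 and 10, 18 genes were called for *Nos1*, and 25 with 1 of the 29 for *Nmu*. With voom weights as well, this gave 1292 genes (8 of the 29), 176 (1) and 256 (1). Voom weights without cells with glial or smooth muscle markers gave 173 genes (2 of the 29) for *Nos1* and 284 (2) for *Nmu*. Voom weights without mouse 1, 2 and 3 gave 2465, 425 and 499 genes with 11, 3 and 4 of the 29 for *Nos1*, 163, 199 and 126 with 1, 2 and 1 for *Nmu*, and 0, 241 and 204 with 0, 1 and 0 for *Slc17a6*. Of the genes of the 29 called in any fit, *Grik5* alone had both signs, lower in the 5 of 21 *Nos1* fits that called it and 0.26 at 3000 UMIs per cell (adjusted p = 0.876 in limma). The cause of these differences in count was not tested. Shares moved by more than the spread between mice for 20 genes at 2 UMIs, for 14 at 3000 UMIs per cell and for 7 without cells with glial or smooth muscle markers. *Chat*-only cells of mouse 1 (16) and *Slc17a6*-positive cells (39) set the depth limit.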
